A study of Homo sapiens with 8 samples.

Results

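In DU145 prostate cancer cells, 2478 GABPA peaks were compared with the 9306 windows of similar width in an ETS1 peak list from the same cells. The members are all intervals of the single deposited GABPA list, out of 24078 intervals in the series' 7 lists. Chromatin immunoprecipitation followed by sequencing (ChIP-seq) finds the places in the genome where an antibody pulls down a protein with its DNA, and each interval here is one such place. DU145 is an established epithelial line from a prostate cancer, and no treatment or genetic change is named for it in the labels. The GABPA antibody was Santa Cruz sc-13442 and the ETS1 antibody Santa Cruz sc-350. The series also holds ELF1, ELK4 and JUND lists from DU145 and an ETS1 list from PANC1, a pancreatic cancer line, and each factor has 1 sample per line. The ETS1 sample in DU145 has 2 lists: a first list of 9984 intervals and a second list, marked R2, whose windows are the ones compared here. The labels do not explain the mark, so both lists stand for 1 sample.

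GABPA is the DNA-binding subunit of GA-binding protein, and it works together with GABPB, which carries the activation domain. It belongs to the ETS family, as do ETS1, ELF1 and ELK4, whose shared ETS domain reads DNA around a GGAA core. GABPA is known for binding close to start sites of housekeeping genes, among them genes for mitochondria and ribosomes. ETS1 is known as a target of ERK phosphorylation downstream of RAS, and it can bind next to AP-1, the factor family that includes JUND.

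The GABPA windows were 382 to 501 bp wide with a median of 497 bp, and the second-list ETS1 windows were 271 to 501 bp wide with the same median. The first ETS1 list held intervals of 271 to 13707 bp, and the JUND list had a median width of 696.5 bp, so both meet other lists more easily. The files give positions only, with no score, height or read count, and the depth behind each list is unknown. Peaks were ranked only by their line in the file, an order that no source explains. With 1 sample per factor, all intervals and p-values below describe counting error over peaks, which are not replicates, and do not measure how another culture would vary. Positions are in hg19, counted from 1.

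Nearly all GABPA peaks fell on ETS1 sites. Of the 2478 peaks, 2285 shared at least 1 bp with a second-list ETS1 window, which is 92.2% (95% Clopper-Pearson interval 91.1 to 93.2%). Against the first ETS1 list the count was 2374, or 95.8%. Both lists were met by 2247 GABPA peaks (90.7%), the second list alone by 38 (1.53%), the first list alone by 127 (5.13%) and neither by 66 (2.66%, interval 2.07 to 3.38%). No GABPA peak met more than 1 second-list window. Width and spacing nearly fix this, since both lists are at most 501 bp wide and the closest second-list centres are 999.5 bp apart. Seen from ETS1, GABPA took 2285 of the 9306 windows, or 24.6% (23.7 to 25.4%). The remaining 7021 ETS1 windows had no GABPA peak in these lists. When only centres within 100 bp counted as shared, 57.7% of GABPA peaks were at a second-list window, 15.4% of windows had GABPA and 25.3% of GABPA peaks were in neither list.

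The first 6 GABPA peaks by line met ETS1 windows on lines 39 to 1600. So few peaks cannot show how the ranks of both lists relate, and the GABPA peak on line 10 met ETS1 line 4574. The peak on line 1, chr5:40835155-40835648, met ETS1 line 39, with 31 bp between the centres. The peak on line 2, chr8:22461944-22462441, met ETS1 line 697. Line 3, chr14:35761338-35761838, met ETS1 line 573, and line 4, chr12:6798485-6798985, met ETS1 line 226. Line 5, chr5:443130-443630, met ETS1 line 1600, and line 6, chr5:271372-271870, met ETS1 line 1100. All 6 had an ETS1 window, and the earliest of those windows was on ETS1 line 39. ELF1 also had a peak at lines 1 and 4, ELK4 at lines 4, 5 and 6, and JUND at none of the 6. The peaks on lines 7 to 14 met none of these lists. Over the 2412 GABPA peaks in an ETS1 list, ELF1 was at 131 (5.43%), ELK4 at 167 (6.92%) and JUND at 58 (2.40%). Counts over 6 peaks are too few to set against these shares. Genes at these positions are not named, because the lists hold no gene names and no annotation of this build was used here.

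GABPA was found mostly at ETS1 windows early in the ETS1 list. The ETS1 lines were cut into 10 equal groups, from the top of the list to its end, and the share of windows with GABPA in them was 50, 51.2, 43.9, 31.4, 26.1, 15.2, 11.7, 8.49, 5.37 and 2.26%. With the lines cut into 5 equal groups, the first group held 942 windows with GABPA among 1861 (50.6%), and the last held 71 among 1862 (3.81%). Fisher's exact test, two-sided, gave an odds ratio of 25.8 (19.998 to 33.8) and p = 3.55e-257. With only the earlier lines of both lists, up to their midpoints, the same comparison gave 4.02 (3.12 to 5.22), and between the first and last of 10 groups it gave 43.3 (27.5 to 71.6). The top of the list was flat: the first and second of the 10 groups had an odds ratio of 0.952 (0.790 to 1.15, p = 0.610, Fisher's exact test), a comparison chosen after the values were seen. Between the second group and the third the odds ratio was 1.34 (1.12 to 1.62, p = 0.00159, Fisher's exact test), also chosen afterwards. Of the first 100 ETS1 windows, 49 held a GABPA peak.

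**Figure D1:**
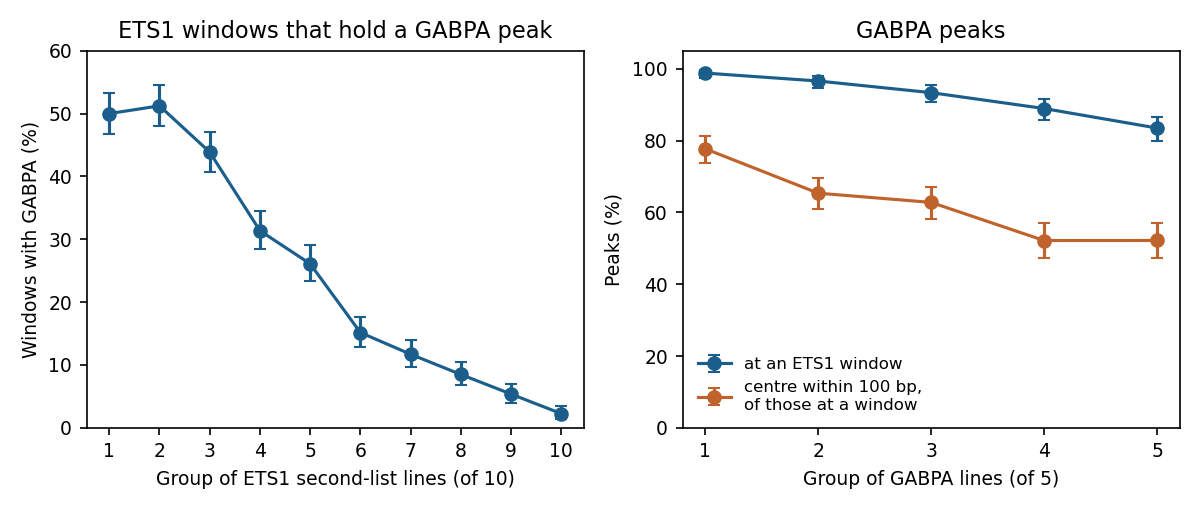
Left, the share of second-list ETS1 windows with a GABPA peak in 10 equal groups of ETS1 lines; right, the share of GABPA peaks at an ETS1 window (blue) and, of those, the share with centres within 100 bp (orange), in 5 equal groups of GABPA lines. Points are shares in percent and bars are 95% Clopper-Pearson intervals; the left curve is level near 50% over the first 2 groups and ends at 2.26%.

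The 6 earliest ETS1 windows without GABPA stood on ETS1 lines 3, 4, 9, 10, 14 and 16. The window on line 3 was chr19:42746893-42747393, and none of the other 4 lists had a peak there. The window on line 4, chr11:62608894-62609393, held ELF1, JUND and PANC1 ETS1 peaks, and the window on line 10, chr11:65190145-65190644, held JUND and PANC1 ETS1 peaks. These windows were chosen after their values were seen. They were taken for lacking GABPA, so they cannot show how often an early ETS1 window lacks it. Taken without that choice, the first 100 ETS1 windows held a GABPA peak at 49.

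The same order held from the side of GABPA. In 5 successive equal groups of GABPA lines, 98.8, 96.6, 93.3, 88.9 and 83.5% of the peaks lay at an ETS1 window. Later GABPA peaks also sat farther from the ETS1 centre: the median distance was 51 bp in the first group, then 66, 66.5, 93.5 and 92.75 bp. The share with centres within 100 bp went from 77.7% in the first group to 52.2% in the last.

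Over all 2285 GABPA peaks at a window, the median distance between centres was 71.5 bp, and 62.5% lay within 100 bp (60.5 to 64.5%). The signed distance along the chromosome had a median of 2.5 bp, with quartiles at -66.5 and 74 bp, so GABPA centres lay on both sides of the ETS1 centre. ELF1 peaks had 62.3% within 100 bp, ELK4 55.9%, PANC1 ETS1 45.0% and JUND, the AP-1 factor, 36.8%. Among windows with only one of the pair, centres within 100 bp were found at 1397 of 2228 windows with GABPA and no JUND (62.7%) and at 126 of 353 windows with JUND and no GABPA (35.7%). The odds ratio was 3.03 (2.38 to 3.86, p = 2.61e-21, Fisher's exact test), in a comparison chosen after the distances were seen. JUND intervals are wider, which lets them meet a window from farther away. Among centres within 250 bp the odds ratio was 2.27 (1.73 to 2.97). That limit bears on reach only. JUND widths run from 419 to 3796 bp, and how this affects the place of their centres was not tested.

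**Figure D2:**
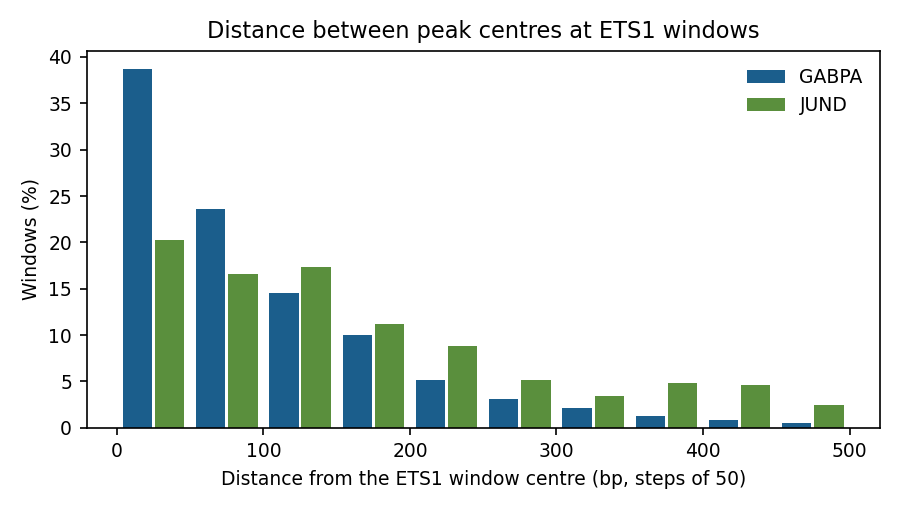
Distance between the centre of an ETS1 second-list window and the centre of the GABPA (blue) or JUND (green) peak that meets it, in steps of 50 bp, as percent of the windows that hold the factor. GABPA has 38.7% of its windows in the first step against 20.2% for JUND; 22 of 410 JUND windows lie at 500 bp or more and are not drawn.

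The other ETS factors were more frequent at ETS1 windows with GABPA than at those without. ELF1 had a peak at 128 of the 2285 windows with GABPA (5.60%) and at 95 of the 7021 without (1.35%), an odds ratio of 4.33 (3.28 to 5.73, adjusted p = 1.01e-25, Fisher's exact test). ELK4, the ETS factor that partners with serum response factor, had a peak at 160 windows with GABPA (7.0%) and at 87 without (1.24%), an odds ratio of 6.0 (4.57 to 7.92, adjusted p = 3.16e-41, Fisher's exact test). These p-values carry the Benjamini-Hochberg adjustment over the 4 other lists.

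JUND went the other way, with 57 windows with GABPA (2.49%) against 353 without (5.03%), an odds ratio of 0.483 (0.357 to 0.644, adjusted p = 1.02e-07, Fisher's exact test). When only centres within 100 bp counted as shared, the JUND odds ratio was 0.604 (0.328 to 1.04), and its interval included 1. The PANC1 ETS1 list was at 62 windows with GABPA (2.71%) and at 227 without (3.23%), an odds ratio of 0.835 (0.617 to 1.11, adjusted p = 0.238, Fisher's exact test).

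Line order moved with these shares. PANC1 ETS1 peaks and GABPA peaks were both most frequent at early ETS1 lines, so the windows were also compared within the 5 groups of ETS1 lines, a step added after seeing the data. In the first group, PANC1 ETS1 peaks were at 5.41% of windows with GABPA and 12.2% of those without, and the odds ratio pooled over the groups (Mantel-Haenszel) was 0.375 (0.276 to 0.508). JUND was at 3.82 and 9.47% in the first group, with a pooled odds ratio of 0.354 (0.261 to 0.479). Pooled values for ELF1 and ELK4 were 2.44 (1.83 to 3.26) and 4.50 (3.31 to 6.11), each above 1. In the earlier lines up to the midpoints of the lists, the odds ratio of ELF1 was 2.08 (1.52 to 2.84) and that of ELK4 3.32 (2.45 to 4.50).

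**Figure D3:**
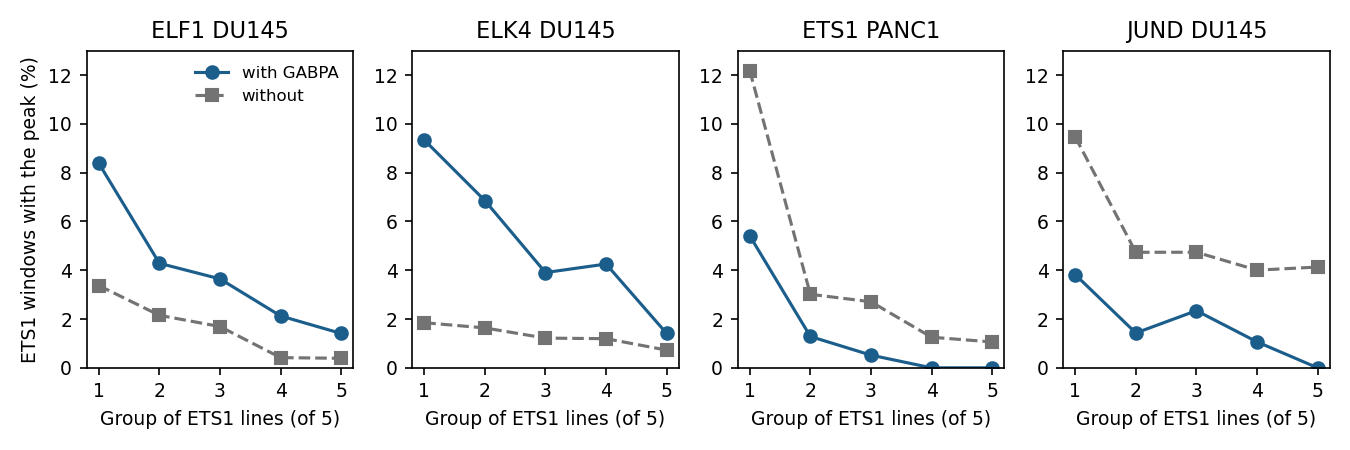
Share of second-list ETS1 windows that hold a peak of each other list, in 5 equal groups of ETS1 lines, for windows with GABPA (blue circles, solid) and without (grey squares, dashed). In each group the ELF1 and ELK4 lines are higher with GABPA, and the JUND and PANC1 ETS1 lines are higher without it. Some points rest on very few windows. In the last group, ELF1 and ELK4 are each at 1 of the 71 windows with GABPA and JUND at 0. PANC1 ETS1 is at 0 windows with GABPA in groups 4 and 5.

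The first ETS1 list also covered windows with GABPA more often. It met 2247 of 2285 windows with GABPA (98.3%) and 5977 of 7021 without (85.1%), an odds ratio of 10.3 (7.44 to 14.7, p = 2.23e-88, Fisher's exact test). Within the 5 line groups the pooled odds ratio was 2.26 (1.59 to 3.21). With centres within 100 bp the odds ratio was 2.74 (2.44 to 3.09). With the GABPA list and both ETS1 lists cut at their midpoints it was 2.51 (1.93 to 3.30). That cut also shortens the first list, so this value counts support by its earlier lines only. With the whole first list, every window in the first of the 5 line groups was covered, with or without GABPA. In the second group the shares were 100 and 99.8%, and in the last group 78.9 and 60.7%.

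GABPA was less frequent where ETS1 windows stood close together. ETS1 windows were joined into a cluster when neighbouring centres were within 10 kb, which placed 1830 of 9306 windows (19.7%) in 792 clusters. GABPA was at 25.5% of the 7476 solitary windows, 22.9% of those in clusters of 2, 19.6% in clusters of 3, 12.9% in clusters of 4 and 8.25% in clusters of 5 to 8. JUND, over the same sizes, was at 3.18, 6.83, 14.6, 15.9 and 14.4%. For GABPA at clustered against solitary windows the odds ratio was 0.766 (0.675 to 0.869, p = 2.19e-05, Fisher's exact test), in a comparison chosen after the data were seen. In the first of the 5 groups of ETS1 lines the shares were 50.4% clustered and 50.7% solitary, and the pooled value within groups was 0.793 (0.691 to 0.910). With clusters joined up to 5 kb the odds ratio was 0.497 (0.409 to 0.601). With clusters joined up to 50 kb the odds ratio was 1.09 (0.992 to 1.20), on the other side of 1.

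Among the 18 clusters of 5 or more ETS1 windows, 11 had no GABPA peak (61.1%), close to the 483 of 792 (61.0%) over all clusters of 2 or more windows, although larger clusters offer more windows. The clusters described next were picked after their values were seen. The cluster with the most windows, chr11:65190145-65222948, held 8 ETS1 windows, 1 JUND window, 1 PANC1 ETS1 window and no GABPA peak. The next 4 clusters by size held 6 ETS1 windows each. At chr12:125395350-125413108 no window had GABPA and 3 had JUND. At chr19:1169341-1184063 and at chr8:145734132-145754696 no window had GABPA and 1 had JUND. At chr19:1259083-1276141 there were 2 windows with GABPA, the highest number among the 18, and 3 with JUND. In the 189 clusters of 2 windows with GABPA at just 1 of them, GABPA was at the window with the earlier ETS1 line in 146 (77.2%, 70.6 to 83.0%).

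Width of the first-list ETS1 interval was also examined after seeing the data. Width went with line order. In the first of the 5 groups of ETS1 lines, the median first-list width was 1573.5 bp at windows with GABPA and 1700 bp without. In the last group the medians were 895.5 and 888 bp. Within each of the first 4 line groups, windows with GABPA had the narrower median. The shares by width below are not split by line group. With the intervals cut into 5 equal groups from the narrowest to the widest, GABPA was present at 5.56, 15.0, 29.3, 37.5 and 31.2%. JUND was present at 3.36, 1.85, 2.70, 3.66 and 10.6%. Between the widest group and the next, GABPA had an odds ratio of 0.756 (0.661 to 0.863, p = 3.09e-05) and JUND one of 3.13 (2.37 to 4.17, p = 5.18e-18), both by Fisher's exact test. Of the 100 widest intervals, 25 held GABPA, near its share of 23.7% over all first-list intervals. JUND was at 38 of the 100, against 1.85 to 10.6% in the 5 width groups.

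**Figure D4:**
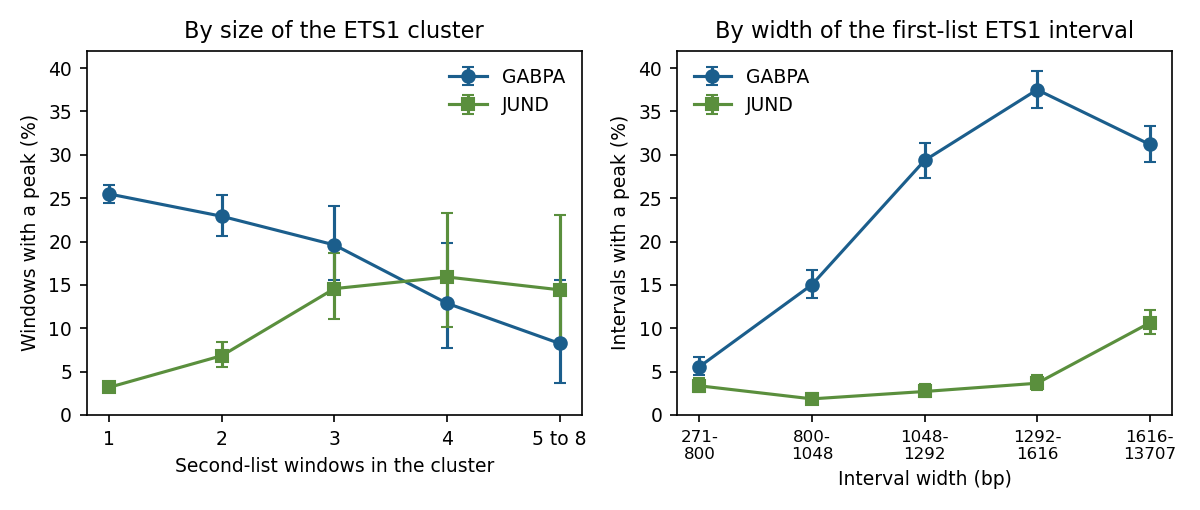
Share of ETS1 sites with a GABPA (blue circles) or JUND (green squares) peak, left by the number of second-list windows in a 10 kb cluster and right by first-list interval width in 5 equal groups, with 95% Clopper-Pearson bars. GABPA goes from 25.5% at solitary windows to 8.25% in clusters of 5 to 8, while JUND goes from 3.18 to 14.4%.

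GABPA peaks themselves were seldom clustered. With the same 10 kb distance, 160 of 2478 peaks (6.46%, 5.52 to 7.50%) lay in clusters, made of 77 pairs and 2 groups of 3. The share was 1.61% at 5 kb, 29.1% at 50 kb and 3.07% in the earlier GABPA lines up to the midpoint. The ETS1 list is denser, with a median gap of 78016 bp between neighbouring centres against 322687 bp for GABPA, so these shares are not compared by a test. In 62 of the 79 GABPA clusters every peak was at a second-list ETS1 window. Clustered GABPA peaks were at a window in 142 of 160 cases (88.8%) and solitary ones in 2143 of 2318 (92.5%), an odds ratio of 0.644 (0.382 to 1.15, p = 0.0939, Fisher's exact test).

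The first group of 3 lies at chr16:730277-740632. Its GABPA peaks stood on GABPA lines 2176, 991 and 10, and only the last met a second-list window, on ETS1 line 4574. The other group of 3 lies at chr8:146012606-146024548, with GABPA lines 1608, 207 and 1466; the first of them met no second-list window, and the others met ETS1 lines 134 and 4060. All 6 peaks were in the first ETS1 list. The remaining clusters all tie at 2 peaks, and the closest of them are described next.

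No neighbouring GABPA centres were within 1 kb, 3 pairs were within 2 kb and 20 within 5 kb, out of 2454 neighbouring pairs. The closest pair was 1721.5 bp apart, at chr19:37958221-37958719 and chr19:37959943-37960440. The next were 1888 bp apart at chr15:64386084-64386581 and chr15:64387972-64388469, and 1999 bp apart at chr2:3381179-3381679 and chr2:3383178-3383678. The fourth closest pair was 2191.5 bp apart, at chr20:62610071-62610557 and chr20:62612256-62612755. In each of these 4 pairs 1 member had no second-list window, while both lay in 1 first-list ETS1 interval that held a single second-list window. The next pairs, 2413.5 bp apart at chr12:56615502-56615992 and chr12:56617911-56618410 and 2480 bp apart at chr5:180670747-180671247 and chr5:180673228-180673726, had a second-list window at each member. The second ETS1 list has its own smallest gap of 999.5 bp and 109 pairs within 2 kb.

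In 60 of the 127 GABPA peaks found in the first ETS1 list alone (47.2%, 38.3 to 56.3%), the first-list interval held a second-list window elsewhere in its length. This count does not require another GABPA peak in the interval, and only 5 first-list intervals held 2 GABPA peaks. The members of the 4 closest pairs that had no second-list window are themselves among the 60.

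GABPA's share of ETS1 windows differed from the rest on 2 of 24 chromosomes, or 8.33% of those tested. On chromosome 19, 231 of 771 windows had GABPA (30.0%, 26.7 to 33.3%), an odds ratio of 1.35 (1.14 to 1.59, adjusted p = 0.00946, Fisher's exact test). On chromosome 10, 74 of 410 windows had GABPA (18.0%, 14.4 to 22.1%), an odds ratio of 0.666 (0.508 to 0.863, adjusted p = 0.0180, Fisher's exact test). The Benjamini-Hochberg adjustment covered all 24 chromosomes. Chromosome 6 had 19.6% and an adjusted p of 0.0511, and chromosome 20 had 30.3% and an adjusted p of 0.178, in the same exact tests.

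Chromosome 19 carries large clusters of zinc finger genes, and whether they bear on its value was not tested. A single megabase weighed on that value, though other bins of the chromosome were high too. Between 58 and 59 Mb, 24 of 37 windows had GABPA (64.9%, 47.5 to 79.8%), the highest count of GABPA windows in any 1 Mb bin; the bin was picked after seeing the counts. Outside it chromosome 19 stood at 28.2%, and without it only chromosome 10 passed the test. Chromosome 19 also had GABPA at 17 of 29 windows (58.6%) from 44 to 45 Mb and at 12 of 30 (40.0%) from 37 to 38 Mb. The test was not repeated without those bins. Chromosome 19 windows also come earlier in the ETS1 list, with a median line of 3936, and within the 5 line groups its odds ratio was 1.19 (0.997 to 1.42). The value of chromosome 10 within line groups was 0.658 (0.498 to 0.869). Chromosome 10 did not pass Fisher's exact test with centres within 100 bp (odds ratio 0.669, adjusted p = 0.138), in the earlier lines of both lists (0.811, adjusted p = 0.574) or without chromosome 19 (0.684, adjusted p = 0.0699). Chromosome 19 did not pass the exact test with those centres (1.26, adjusted p = 0.173) or in the earlier lines (1.04, adjusted p = 0.834). Among the bins with the most ETS1 windows, GABPA shares lay on both sides of the 24.6% over all windows. The bin with the most, chromosome 11 from 65 to 66 Mb, had GABPA at 7 of 39 (17.9%). Chromosome 19 had 18.9% from 1 to 2 Mb, 12.9% from 49 to 50 Mb and 64.9% from 58 to 59 Mb. Chromosome 17 had 27.8% from 7 to 8 Mb, and chromosome 16 had GABPA at 8 of 32 from 30 to 31 Mb. These bins were chosen afterwards and hold few windows, and their differences were not tested.

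**Figure D5:**
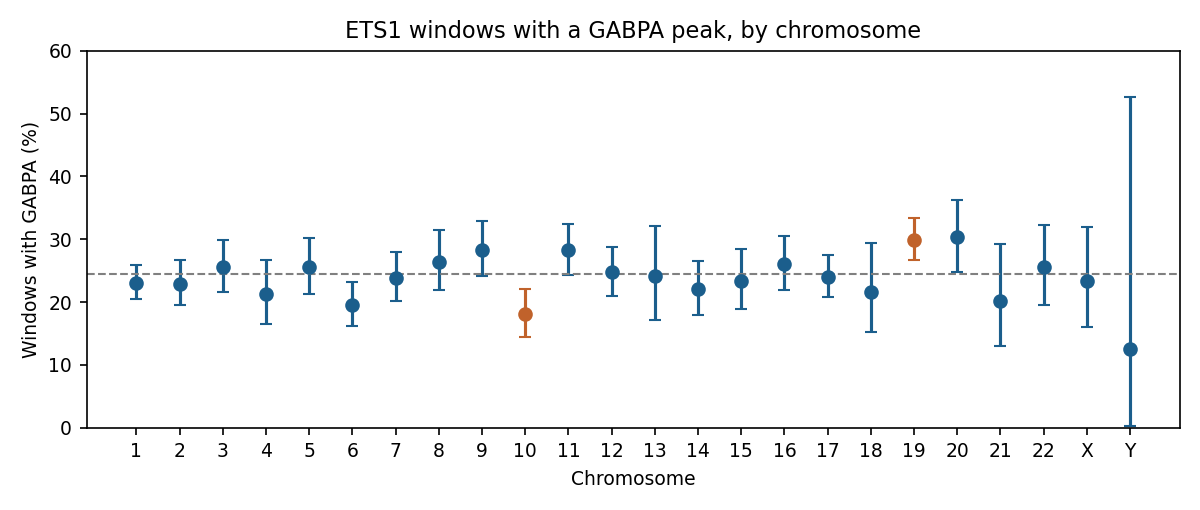
Share of second-list ETS1 windows with a GABPA peak on each chromosome, in percent, with 95% Clopper-Pearson bars; the dashed line is the share over all windows, 24.6%. Chromosomes 10 (18.0%) and 19 (30.0%), in orange, passed the exact test after adjustment.

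The 66 GABPA peaks in neither ETS1 list stood late in the GABPA list. In the 5 groups of GABPA lines they numbered 1, 4, 9, 22 and 30, with a median line of 1952.5, and made up 0.484% of the GABPA lines up to the midpoint. The nearest second-list centre was a median of 52.9 kb away. It was within 1 kb for 2 peaks, within 10 kb for 6 and within 100 kb for 44. Neighbouring second-list centres are themselves a median of 78016 bp apart, and the 66 were taken for meeting no window. Whether they lie unusually far from ETS1 was not tested. ELF1 had a peak at 2 of the 66 (3.03%), ELK4 at 3 (4.55%), JUND at 2 (3.03%) and PANC1 ETS1 at 1 (1.52%). At the other 2412 GABPA peaks the shares were 5.43, 6.92, 2.40 and 2.57%. None of these counts differed from the other GABPA peaks past the threshold (Fisher's exact test, adjusted p from 0.898 to 1), and with so few peaks the intervals of the odds ratios are wide, such as 0.127 to 1.99 for ELK4.

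The earliest of the 66 was on GABPA line 309, at chr9:34620336-34620835, with the nearest ETS1 centre 8.39 kb away. Next came line 648 at chr3:13493130-13493628, line 755 at chr3:45883499-45883999, line 854 at chr10:99160974-99161474 and line 908 at chr22:29784221-29784720. The chromosome 10 peak had an ETS1 centre 0.822 kb away, outside the window, and the chromosome 3 peak on line 648 had its nearest 457 kb away. The next 5 were chr3:44596460-44596955, chr3:180397132-180397628, chr5:68855731-68856231, chr3:9690984-9691483 and chr11:46958036-46958536, on lines 1227, 1248, 1324, 1369 and 1376. None of these 10 peaks met a peak of ELF1, ELK4, JUND or PANC1 ETS1, each of which met at most 3 of all 66. Chromosome 3 held 5 of the 10, 13.6% of the 66 and 5.29% of all GABPA peaks.

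By chromosome, 1 of 24 (4.17%) differed in its share of peaks in neither list, in a test added after seeing the data. On chromosome X, 6 of 39 GABPA peaks were in neither list (15.4%), an odds ratio of 7.19 (2.37 to 18.3, adjusted p = 0.0111, Fisher's exact test). The chromosome X peaks stand late in the GABPA list, with a median line of 1991, and the value within the 5 groups of GABPA lines was 4.16 (1.65 to 10.5). Chromosome X windows also stand late in the second ETS1 list, with a median line of 6479.5. Most of the 6 peaks share a stretch: chrX:51545930-51546430, chrX:52004656-52005138, chrX:52949854-52950315 and chrX:55187406-55187902. The others are chrX:69353347-69353845 and chrX:77165839-77166288. Chromosome X was not tested without that stretch. Chromosome 3 had 9 of 131 (6.87%), with an adjusted p of 0.0832 in the same exact test.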

How the data were processed

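The deposited lists hold 3 columns, the chromosome, start and end of each peak, in hg19 per the labels; they carry no score, and Bowtie2 2.0.6 appears, with no role, in the submitters' processing notes. Not given in the sources used here are the peak caller, its threshold and the use of the 2 inputs, which were not analysed. The unit of the deposited values is the position in bp. The members, lists and tests were chosen with earlier results of these data known. Peaks sharing at least 1 bp were counted as overlapping. Shares carry 95% Clopper-Pearson intervals; for disjoint sets of windows, two-sided Fisher's exact tests gave conditional odds ratios and exact 95% intervals, and Mantel-Haenszel odds ratios were pooled within 5 equal groups of lines. Intervals cover counting error only. Python 3.11.15, NumPy 2.4.6, SciPy 1.17.1 and Matplotlib 3.10.9 were used, and the steps were tested on simulated data.

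Peaks described singly are the first 6 by line, the first 10 in neither ETS1 list, the 6 closest pairs, the clusters with the most peaks and each chromosome past an adjusted p of 0.05; others are marked as chosen afterwards. Start sites, motifs and gene lists were planned but not analysed here, since no genome or annotation of the hg19 build was used; no gene is assigned to a peak and no sequence is printed.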

Additional observations from a re-analysis of the deposited data

How the results depend on the processing

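Of 85 alternatives, 55 kept the direction and the side of the threshold, or stayed near the value. The share of GABPA peaks at ETS1 windows was 84.8% when 50% of the shorter interval had to be shared, 57.7% with centres within 100 bp, 93.6% with a gap of at most 500 bp, 95.8% with the first ETS1 list and 87.5% with the earlier lines of both lists up to their midpoints. The share of ETS1 windows with GABPA was 22.6, 15.4 and 23.3% with the 50% overlap, the 100 bp centres and the earlier lines. GABPA peaks in neither list made up 25.3% with the 100 bp centres and 0.484% in the earlier lines. The number of chromosomes past the threshold was 0 with the 100 bp centres, with the earlier lines and without chromosome 19, and 1 without 58 to 59 Mb of chromosome 19. GABPA peaks in clusters made up 3.07% in the earlier lines, 1.61% at 5 kb and 29.1% at 50 kb, and pairs within 2 kb numbered 3. For JUND the odds ratio was 0.604 with the 100 bp centres. For PANC1 ETS1 it was 1.002 with those centres, 0.689 in the earlier lines and 0.375 within groups of lines. GABPA at clustered against solitary windows had 1.09 at 50 kb, and chromosome 19 had 1.19 within groups of lines. Chromosome 10 was the chromosome left without 58 to 59 Mb of chromosome 19 (adjusted p = 0.0434, Fisher's exact test), and it lost its call with the 100 bp centres, in the earlier lines and without chromosome 19. Fewer peaks enter the earlier lines, and centres within 100 bp are a narrower criterion by construction; otherwise the cause was not tested. No paired analysis was possible because each group has 1 sample, and no sample could be left out. The planned tests of start sites, motifs and gene lists were not run. Depth is unknown, so a missing peak does not show missing binding.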
